A study of Mus musculus with 2 samples.

Results

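The 39 Hox cluster genes measured in mouse glomerular preparations were described by cell lineage. They were taken as every symbol in the feature list that reads Hoxa, Hoxb, Hoxc or Hoxd followed by a number only, which gave 39 symbols under 40 entries of 31058, because Hoxd4 is listed under 2 identifiers that were kept apart. The samples were total cells from kidney glomeruli of 2 healthy C57Bl/6 mice, each with the genotype Pax2.rtTA;TetO.Cre;R26.Confetti, given doxycycline at 19 days of age and killed at 30 days. In this system the Pax2 promoter drives a doxycycline-dependent activator, and Cre then switches on a fluorescent reporter, so both mice share the same alleles and treatment and there is no untreated group. From each mouse 1 library of 10x 3' counts was made, 1 titled female and 1 titled male.

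Hox genes encode homeodomain transcription factors that give cells a positional identity along the body axis. They lie in clusters in which the order of the genes follows the order in which they act, from anterior (low paralog numbers) to posterior (high numbers), and genes with the same number in different clusters are paralogs that arose by duplication. In the kidney the paralogs of number 11 are known for their role in starting the metanephric kidney. Podocytes, parietal cells and tubule cells arise from nephron progenitors, mesangial and mural cells from the renal stroma, and endothelial cells from a separate vascular lineage.

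The clusters lie on 4 chromosomes of GRCm38, also called mm10. HoxA, with 11 members, lies on chromosome 6. HoxB, with 10 members, spans 173.9 kb of chromosome 11 (chr11:96194316-96368256). HoxC, with 9 members, spans 115.8 kb of chromosome 15 (chr15:102921103-103036852), and HoxD, with 9 members, spans 96.8 kb of chromosome 2 (chr2:74668310-74765142). The clusters also hold microRNA genes that share seeds across clusters, where the seed is bases 2 to 8 of the mature RNA. The miR-196 sequences are shown because one of them pairs along its whole length with Hoxb8, a gene whose level separates podocytes from the other epithelia below. Mir196a-1 lies in HoxB, Mir196a-2 in HoxC and Mir196b in HoxA, and the capitals mark the seed in the RefSeq sequences.
miR-196a-5p: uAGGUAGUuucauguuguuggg
miR-196b-5p: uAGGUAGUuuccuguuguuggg
Hoxb8 site: CCCAACAACATGAAACTgCCTA
The Hoxb8 site lies in the 3' UTR (chr11:96284888-96284909, plus strand), and its capitals mark bases in Watson-Crick pairing with miR-196a-5p. Of 22 bases, 21 form Watson-Crick pairs and 1 a G:U pair, which lies within the seed, so the seed itself is not a full Watson-Crick match. Among 21901 protein-coding genes, 32 (0.146%) hold an ungapped site with at least 21 of 22 bases paired, and Hoxb8 is the only 1 of 39 members searched that does. The match is a description of the sequence, and mature microRNAs were not analysed here.

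Promoters from 250 bases before to 50 bases after the start were matched for 22 member symbols (24 starts) in the RefSeq table of GRCm38.p6. They are shown for Hoxb8 and Hoxd11, which were near 0 in podocytes and present in parietal cells, and for Hoxa7, whose level in podocytes exceeded that of every other class in both libraries. Capitals mark TGATNNAT, a composite motif of HOX and PBX proteins, searched on both strands.
Hoxb8 promoter: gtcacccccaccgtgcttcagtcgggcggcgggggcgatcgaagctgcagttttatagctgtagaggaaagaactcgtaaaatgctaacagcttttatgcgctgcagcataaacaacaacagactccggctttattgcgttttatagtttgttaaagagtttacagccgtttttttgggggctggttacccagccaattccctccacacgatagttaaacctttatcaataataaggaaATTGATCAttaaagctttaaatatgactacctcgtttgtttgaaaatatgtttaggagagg
Hoxd11 promoter: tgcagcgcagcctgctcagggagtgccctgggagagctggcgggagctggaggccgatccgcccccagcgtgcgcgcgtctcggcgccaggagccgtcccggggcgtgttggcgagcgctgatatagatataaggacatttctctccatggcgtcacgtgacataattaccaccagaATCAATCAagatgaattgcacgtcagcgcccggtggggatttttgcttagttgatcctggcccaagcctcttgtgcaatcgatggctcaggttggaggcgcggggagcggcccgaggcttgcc
Hoxa7 promoter: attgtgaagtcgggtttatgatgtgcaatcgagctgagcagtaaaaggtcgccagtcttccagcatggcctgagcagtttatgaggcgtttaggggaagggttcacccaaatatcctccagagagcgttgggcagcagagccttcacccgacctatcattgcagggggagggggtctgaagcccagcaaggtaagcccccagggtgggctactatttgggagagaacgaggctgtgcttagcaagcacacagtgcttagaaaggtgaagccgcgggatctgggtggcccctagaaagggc
The genes are Hoxb8 (ENSMUSG00000056648, chr11:96281905-96285315), Hoxd11 (ENSMUSG00000042499, chr2:74679557-74687016) and Hoxa7 (ENSMUSG00000038236, chr6:52214491-52221854). The promoter windows are chr11:96281655-96281954 (plus strand), chr2:74682073-74682372 (plus strand, the downstream of 2 starts) and chr6:52218524-52218823 (minus strand). The motif stood in 4 of 24 Hox promoters (16.7%), those of Hoxb8, Hoxd11, Hoxa2 and Hoxb1, and in 2906 of all 32851 promoters of the same length (8.85%). The Hoxa7 window and the upstream Hoxd11 start do not hold these letters. Nor does the window of Hoxa11, which was also near 0 in podocytes and present in parietal cells but is not shown. A link between the motif and the levels was not tested.

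The libraries held 5233 and 4974 barcodes, with 10 barcode sequences in common, and 4909 and 4442 cells were kept at medians of 10672 and 9616 UMIs (unique molecular identifiers, each 1 captured transcript). The transcripts of sex-linked genes went against both titles: Xist stood at 0.682 CPM (the UMIs of a gene scaled to a common total) in the library labelled female and 1593 CPM in the library labelled male, so no direction between the sexes was drawn. Cells were clustered without the Hox genes and named from marker genes, and the names mean podocyte-like, parietal-like and so on throughout. The classes held 4092 and 3678 podocytes, 84 and 57 parietal cells, 71 and 113 tubule cells, 241 and 175 mesangial cells and 44 and 62 smooth muscle or renin cells, with the library labelled female first. There were also 113 and 90 glomerular endothelial cells and 83 and 82 arterial endothelial cells. Most tubule cells (61 and 91) came from 1 cluster led by thick ascending limb genes (Slc12a1, Umod) that also held Slc12a3 of the distal convoluted tubule, and 10 and 22 were proximal tubule cells. All 12 podocyte markers reached 50 CPM in podocytes, all 11 mesangial markers in mesangial cells and all 12 glomerular endothelial markers in glomerular endothelial cells, in both libraries. In parietal cells 10 of 12 parietal markers did so in each library, in smooth muscle or renin cells 11 and 10 of 12, and in arterial endothelial cells 9 and 10 of 12. The summed arterial markers were lower in arterial endothelial cells (4363 and 3878 CPM) than in smooth muscle or renin cells (5663 and 6139 CPM). All 12 glomerular endothelial markers also reached 50 CPM in arterial endothelial cells of both libraries. Their sum was 6381 and 6480 CPM there, against 17800 and 17740 CPM in glomerular endothelial cells.

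Podocyte transcripts were also present in other classes. All 12 podocyte markers also reached 50 CPM in tubule, mesangial, smooth muscle or renin and arterial endothelial cells, where their sum ran from 2127 to 8381 CPM, against 28750 and 30060 CPM in podocytes. The level of Nphs1, which encodes the slit diaphragm protein nephrin, reached 23.9% and 25.2% of the podocyte level in arterial endothelial cells, 17.2% and 15.2% in tubule cells, 17.3% and 11.2% in smooth muscle or renin cells and 14.2% and 5.01% in mesangial cells. It was 3.66% and 3.1% in parietal cells and 1.85% and 3.35% in glomerular endothelial cells. Nphs1 was concentrated in some cells: 20 of 83 and 19 of 82 arterial endothelial cells lay above 10% of the podocyte level, while the median cell was at 0. In addition, 5 glomerular endothelial cells of the library labelled female carried 2 or more UMIs of the mesangial receptor gene Pdgfrb, against 0 cells in the other library. Levels are therefore given for all cells and, where they differ, without the cells that held podocyte transcripts (Nphs1 above 10% of the podocyte level) or, in endothelium, 2 or more Pdgfrb UMIs. That set is called the filtered cells and was chosen after seeing the data.

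Levels are CPM of the UMIs summed over a class. The 3' counts give 1 tag per transcript, so they carry no factor of transcript length. Of the 39 members, 22 reached 20 CPM in both libraries in at least 1 class, 11 had UMIs but stayed below that, with a highest level of 15.4 CPM (Hoxa3 in parietal cells), and 6 had no UMI in any kept cell. Among the 11 were Hoxa3, Hoxa6, Hoxb1, Hoxc5, Hoxc11, Hoxd1 and Hoxd3. The 6 were Hoxa13, Hoxb13, Hoxc12, Hoxc13, Hoxd12 and Hoxd13, all of paralog numbers 12 and 13, the posterior ends of the clusters. In podocytes a count of 0 allows up to 0.0598 and 0.076 CPM of Hoxa13, but in smooth muscle or renin cells up to 7.18 and 5.71 CPM. Such limits for a count of 0 are 3 counts over the depth of the class, not the upper end of an exact Poisson interval. Intervals and limits cover counting error only.

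**Figure D1:**
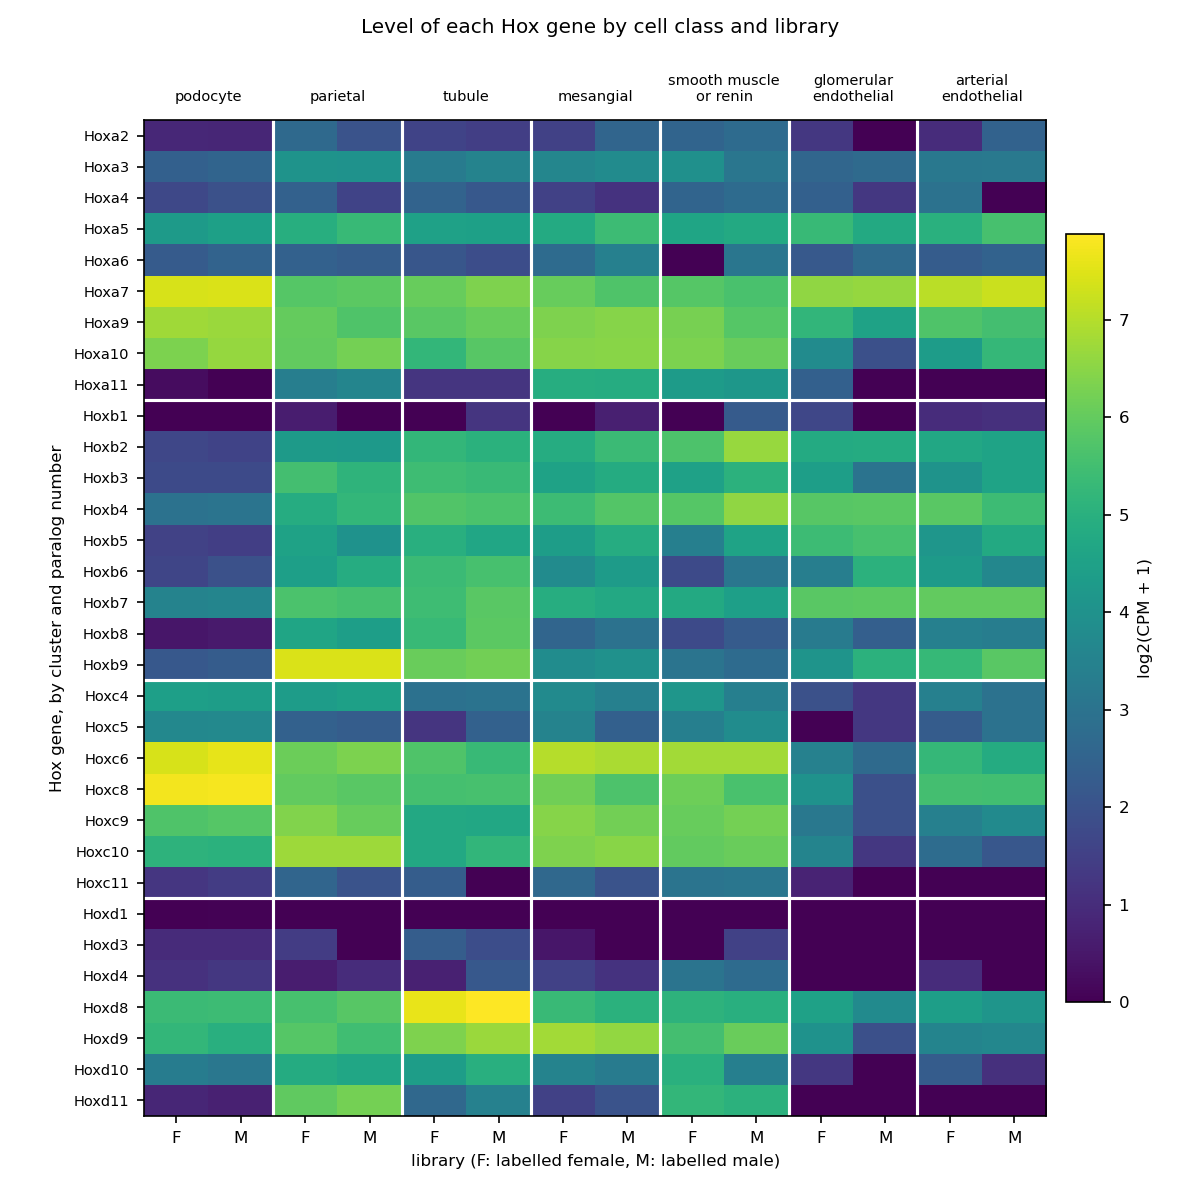
Level of Hox genes with UMIs (rows, by cluster and paralog number) in 7 cell classes and both libraries (columns), as log2(CPM + 1), with the 2 Hoxd4 entries summed. The HoxB rows from Hoxb2 to Hoxb9 are dark in podocytes (Hoxb6 is about as dark in smooth muscle or renin cells of the library labelled female), the HoxC rows are dark in glomerular endothelium, and Hoxd8 is brightest in tubule cells.

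Podocytes drew their Hox transcripts from HoxA and HoxC, with little HoxB. HoxC gave 49.7% and 50.2% of all podocyte Hox UMIs, HoxA 38.5% and 39.0%, HoxD 8.82% and 7.83% and HoxB 2.97% and 3.0%. The summed Hox level was 1006 and 1050 CPM, of which paralogs 4 to 8 made up 66.5% and 67.1% and paralogs 9 to 13 made up 32.1% and 31.6%. Of the 39 members, 13 were detected at 10 CPM or more with at least 5 UMIs in each library. The highest was Hoxc8, a central HoxC gene, at 213 and 217 CPM. It was followed by Hoxc6 at 169 and 190 CPM and Hoxa7 at 167 and 171 CPM. Among the posterior genes, Hoxa9 stood at 107 and 102 CPM and Hoxa10 at 79.7 and 99.2 CPM. Hoxc9 stood at 51.6 and 54.2 CPM, Hoxc10 at 32.9 and 32.1 CPM, Hoxd8 at 40.2 and 41.4 CPM and Hoxd9 at 36.5 and 30.1 CPM. Hoxb7 was the highest of the HoxB genes at 10.4 and 10.9 CPM, whereas its neighbour Hoxb8 was at 0.379 and 0.482 CPM, 19 UMIs in each library.

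The podocyte pattern held across the 8 podocyte clusters. Hoxc8 ranged from 174 to 244 CPM over clusters and libraries, Hoxb7 from 5.8 to 18.4 CPM and Hoxb9 from 0.5 to 6.8 CPM. Hoxa10 was lowest, at 52.3 and 62.2 CPM, in the cluster led by immediate early and stress genes (Atf3, Nr4a1, Egr2), against 76.7 to 118.5 CPM in the others. These clusters were not tested against each other. Of 10 members at 20 CPM or more in podocytes of both libraries, the ratio of the library labelled female to the other ran from 0.803 (Hoxa10, 95% counting interval 0.768 to 0.839) to 1.21 (Hoxd9, 1.13 to 1.31). The cluster led by immediate early and stress genes held 1006 of 4092 podocytes in the library labelled female and 373 of 3678 in the other; its part in these ratios was not tested. With 1 library per title, the ratio has no replicate check.

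Parietal epithelial cells, which line Bowman's capsule, used all 4 clusters. HoxB gave 32.5% and 31.9% of their Hox UMIs, HoxC 29.6% and 28.7%, HoxA 21.4% and 22.3% and HoxD 16.5% and 17.1%. Posterior paralogs 9 to 13 made up 54.9% and 53.5%. Hoxb9 was highest at 171 and 172 CPM, then Hoxc10 at 106 and 105 CPM. Hoxd11, a paralog of the group that starts the metanephric kidney, stood at 60.7 and 73.6 CPM, and its paralog Hoxa11 at 9.38 and 11.1 CPM. In podocytes the same genes were at 0.798 and 0.659 CPM and at 0.199 and 0 CPM. Of the 39 members, 22 were detected in parietal cells.

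The classes were compared with edgeR's quasi-likelihood test on summed counts over the 2 mice, with the library as a block and Benjamini-Hochberg adjustment over 12054 genes. The block takes up a difference between the libraries that is equal in all classes. Because the mice are also the libraries of opposite titles, the remaining spread includes any difference between the sexes that varies by class. Of the 39 members, 26 passed the filter on low counts, and a gene could pass through the class in which it was high. Of these, 25 differed among the 7 classes (adjusted p under 0.05), as did 81.3% of all genes tested, and Hoxa6 did not.

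Parietal cells exceeded podocytes in every tested HoxB gene. Between the classes 21 of 26 members were called, 15 higher and 6 lower in parietal cells, where 51.0% of all genes were called (30.6% higher and 20.4% lower). The median log2 fold change was 1.41 over the 26 members and 0.07 over all genes. All 8 tested HoxB genes were higher, by 2.07 (Hoxb4, SE 0.23, and Hoxb7, SE 0.17) to 5.57 (Hoxb8, SE 0.35, adjusted p = 2.8e-11) on the log2 scale. Hoxb9 rose by 5.41 (SE 0.16, adjusted p = 2.3e-16). Hoxd11 rose by 6.35 (SE 0.29, adjusted p = 1.2e-12) and Hoxa11 by 6.21 (SE 0.74, adjusted p = 8.5e-07). Hoxc10 rose by 1.59 (SE 0.17) and Hoxd10 by 1.52 (SE 0.28). The 3 genes highest in podocytes were lower in parietal cells, with a log2 fold change of -1.97 for Hoxc8 (SE 0.16), -1.69 for Hoxa7 (SE 0.14) and -1.42 for Hoxc6 (SE 0.15). Hoxc4, Hoxd8 and Hoxd9 were not called, at -0.15, 0.21 and 0.48, although Hoxd9 was called in the filtered cells (0.43, adjusted p = 0.048), without the highest Scrublet scores and with Hox genes in the clustering. The smaller calls of Hoxc9 (0.38, adjusted p = 0.045), Hoxa10 (-0.49, adjusted p = 0.033) and Hoxa5 (0.63, adjusted p = 0.015) were lost in part of the alternatives, Hoxc9 at 0.24 with adjusted p = 0.21 in the filtered cells.

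The parietal class also carried transcripts of stromal marker genes. The 12 smooth muscle or renin markers summed to 3195 and 4432 CPM in parietal cells, against 84.4 and 51.3 CPM in podocytes and 42560 and 65150 CPM in smooth muscle or renin cells. Most of this was Tagln (2567 and 3546 CPM) and Acta2 (496.6 and 701.6 CPM), which encode cytoskeletal proteins of contractile cells, while Ren1, the renin gene, was at 18.2 and 7.06 CPM and Myh11, smooth muscle myosin, at 4.41 and 7.06 CPM. Rergl and Olfr78 were at 0 in both libraries. The 11 mesangial markers summed to 838.7 and 917.4 CPM, against 15200 and 15190 CPM in mesangial cells, with Gata3 and Art3 at 0. Of the parietal cells, 25 of 84 and 23 of 57 held 2 or more Pdgfrb UMIs. Without them, a setting chosen after seeing the data, Hoxd11 stood at 51.8 and 62.7 CPM and Hoxa11 at 9.51 and 3.48 CPM, the latter from 9 and 2 UMIs. Hoxd11 was still higher than in podocytes by 6.01 (adjusted p = 1.5e-10), Hoxa11 by 5.58 (adjusted p = 0.00011) and Hoxb8 by 5.46 (adjusted p = 1e-09). All 8 HoxB genes were still called, and 18 members were called in all, 12 higher and 6 lower. Hoxa6 and Hoxc11 were no longer tested in this setting. The share of all genes called in it is not given here, and was 51.0% in the main fit. The smooth muscle or renin markers still summed to 2467 and 2961 CPM in these cells, and the part of that remainder in the result was not tested.

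**Figure D2:**
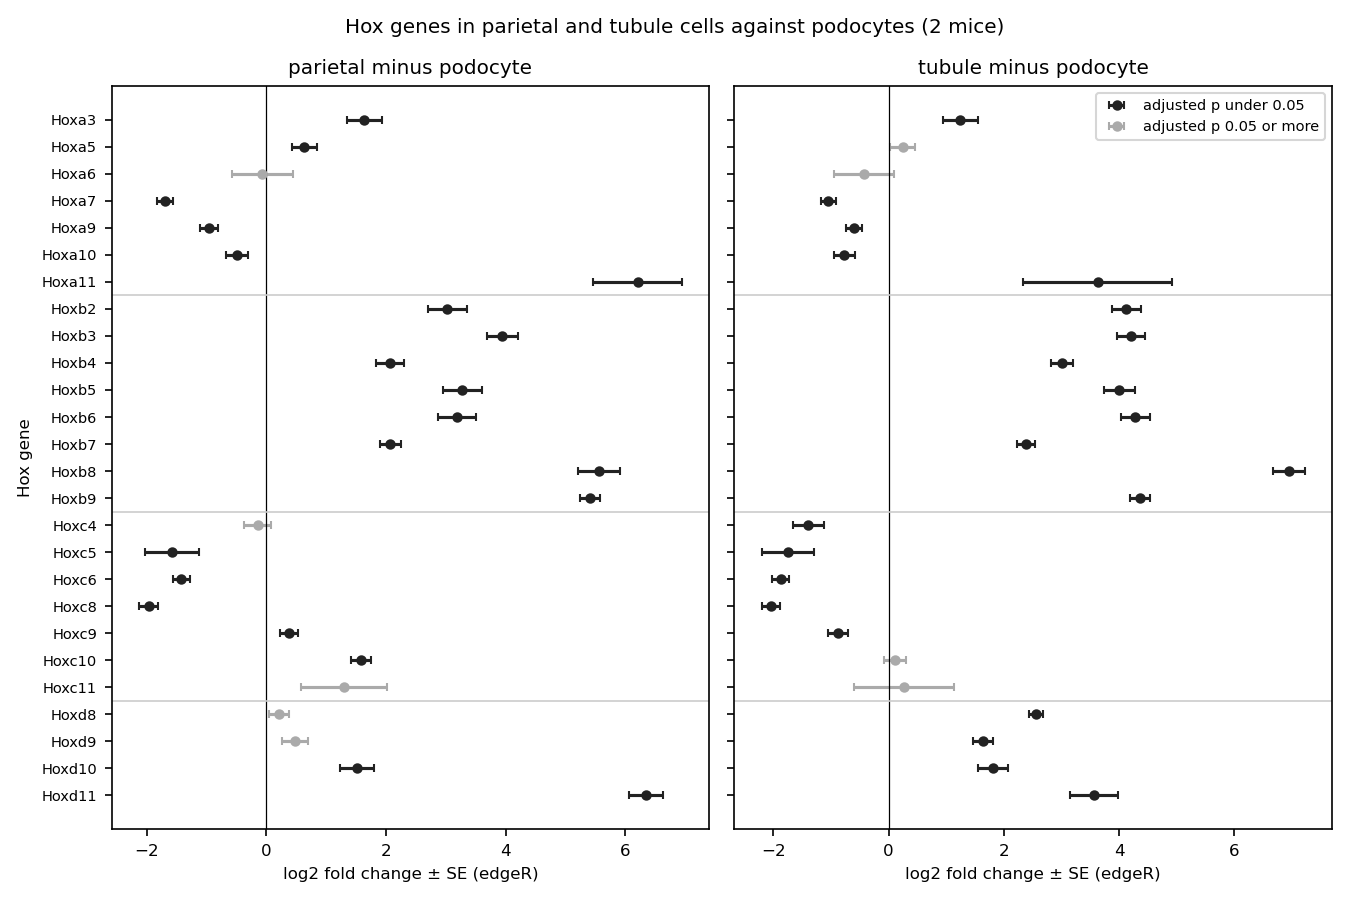
Log2 fold change (x axis, edgeR, 2 mice) of each of the 26 tested Hox genes in parietal cells (left) and tubule cells (right) against podocytes. Points are estimates, bars are SE and grey points did not pass an adjusted p of 0.05. All 8 HoxB genes lie to the right of 0 in both panels, while Hoxa7, Hoxc6 and Hoxc8 lie to the left.

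The pooled tubule cells, mostly from the thick ascending limb cluster, combined HoxB with a high level of Hoxd8. HoxB gave 34.3% and 32.8% of their Hox UMIs and HoxD 30.1% and 32.9%. Hoxd8 stood at 196 and 235 CPM, its highest level of the 7 classes, next to parietal cells at 47.5 and 56.5 CPM, and the 2 classes do not overlap. Hoxd9 was at 80.7 and 102 CPM, Hoxb9 at 66.7 and 73.1 CPM and Hoxb8 at 38.7 and 59.0 CPM. The Hoxd8 transcripts came from the thick ascending limb cluster, at 245 and 308 CPM, whereas proximal tubule cells held 12.7 and 5.5 CPM. Hoxc6 and Hoxc8 were likewise low in proximal tubule cells, at 6.3 and 3.6 CPM and at 9.5 and 3.6 CPM. With 10 proximal tubule cells in 1 library, the segments were not tested, and HoxB levels of proximal tubule cells alone are not given here.

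Against podocytes, 22 of 26 members were called in tubule cells, 14 higher and 8 lower, where 53.6% of all genes were called (33.0% higher and 20.6% lower). The median was 1.44 over the members and 0.13 over all genes, and the folds are to be read against that shift. All 8 tested HoxB genes were again higher, by 2.39 (Hoxb7, SE 0.16) to 6.95 (Hoxb8, SE 0.28, adjusted p = 1.6e-14). All 4 tested HoxD genes were higher, Hoxd8 by 2.57 (SE 0.12, adjusted p = 3.2e-13) and Hoxd11 by 3.57 (SE 0.42). Of 7 HoxC genes 5 were lower, Hoxc8 at -2.04 (SE 0.16) and Hoxc6 at -1.87 (SE 0.15). Without the tubule cells that held podocyte transcripts, Hoxc8 fell from 46.0 and 46.7 CPM to 16.4 and 12.9 CPM in the class, and its log2 fold change went to -3.88. Hoxd8 was at 198.5 and 254 CPM in those filtered cells and the 8 HoxB genes were all still called. The call of Hoxa11 (3.63, adjusted p = 0.019), from 2 and 3 tubule UMIs, was lost in 2 of the alternatives.

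Mesangial cells, the contractile support cells of the glomerular tuft, led with Hoxc6 at 126 and 117 CPM and Hoxd9 at 110 and 96.6 CPM. Hoxc10 stood at 81.2 and 88.6 CPM, Hoxa10 at 86.2 and 89.2 CPM and Hoxc9 at 86.6 and 72.0 CPM. Hoxa11 was at 28.9 and 28.3 CPM, while Hoxd11 was at 1.9 and 3.08 CPM. Smooth muscle or renin cells of the arterioles held both number 11 paralogs, Hoxa11 at 19.1 and 17.1 CPM and Hoxd11 at 35.9 and 32.4 CPM. The difference in Hoxa11 between these classes did not pass the test (-0.51, SE 0.58, adjusted p = 0.65). Posterior paralogs 9 to 13 made up 48.4% and 47.6% of Hox UMIs in mesangial cells and 45.1% and 39.7% in smooth muscle or renin cells.

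The smooth muscle or renin class differed from mesangial cells in 3 of 26 members, where 17.5% of all genes were called, and all 3 were higher and 0 lower (8.77% and 8.69% of all genes). Hoxd11 rose by 3.95 (SE 0.51, adjusted p = 1.6e-05). Hoxb2, at 50.3 and 100.9 CPM against 28.5 and 40.6 CPM, rose by 1.33 (SE 0.28, adjusted p = 0.0015). Hoxb4, at 55.1 and 93.3 CPM against 41.4 and 54.1 CPM, rose by 0.82 (SE 0.25, adjusted p = 0.026). The 7 HoxA and 7 HoxC genes tested had no call, with folds from -0.73 to -0.05 and from -0.25 to 0.95. With 44 and 62 cells, the smooth muscle class was the shallowest at 417775 and 525132 UMIs.

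Endothelial cells held little HoxC. In glomerular endothelium the summed Hox level was 525 and 464 CPM, and HoxB gave 45.4% and 57.5% and HoxA 38.2% and 35.8% of it. Hoxa7 was highest at 94.6 and 99.3 CPM, then Hoxb7 at 57.0 and 58.8 CPM, Hoxb4 at 56.3 and 57.4 CPM and Hoxb5 at 41.1 and 47.6 CPM. The summed HoxC level was 47.6 and 15.4 CPM in all cells. In the filtered cells it was 2.0 CPM (95% Poisson interval 0.243 to 7.24) and 4.44 CPM (0.916 to 12.98), from 2 and 3 UMIs. The filtering left out 11 of 113 cells and 3 of 90 cells. Hoxd11 had 0 UMIs in both libraries and both endothelial classes. With the limit of 3 counts, this allows up to 2.17 and 4.2 CPM in glomerular and up to 2.94 and 3.45 CPM in arterial cells.

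Arterial endothelium also held little HoxC among the filtered cells. In all cells Hoxc8 stood at 45.1 and 43.7 CPM and Hoxc6 at 37.2 and 27.6 CPM. In the filtered cells, 62 and 63 in number, Hoxc8 was at 3.11 and 1.81 CPM and Hoxc6 at 0 and 0 CPM, and the summed HoxC level went from 111.7 and 101.2 CPM to 3.11 and 3.62 CPM. Hoxb7 was at 62.7 and 62.1 CPM in all cells and at 82.4 and 84.97 CPM in the filtered cells. Hoxa7 was at 133 and 151 CPM in all cells and at 135 and 146 CPM in the filtered cells. Hoxb9 was at 38.2 and 57.5 CPM, then 45.1 and 77.7 CPM.

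**Figure D3:**
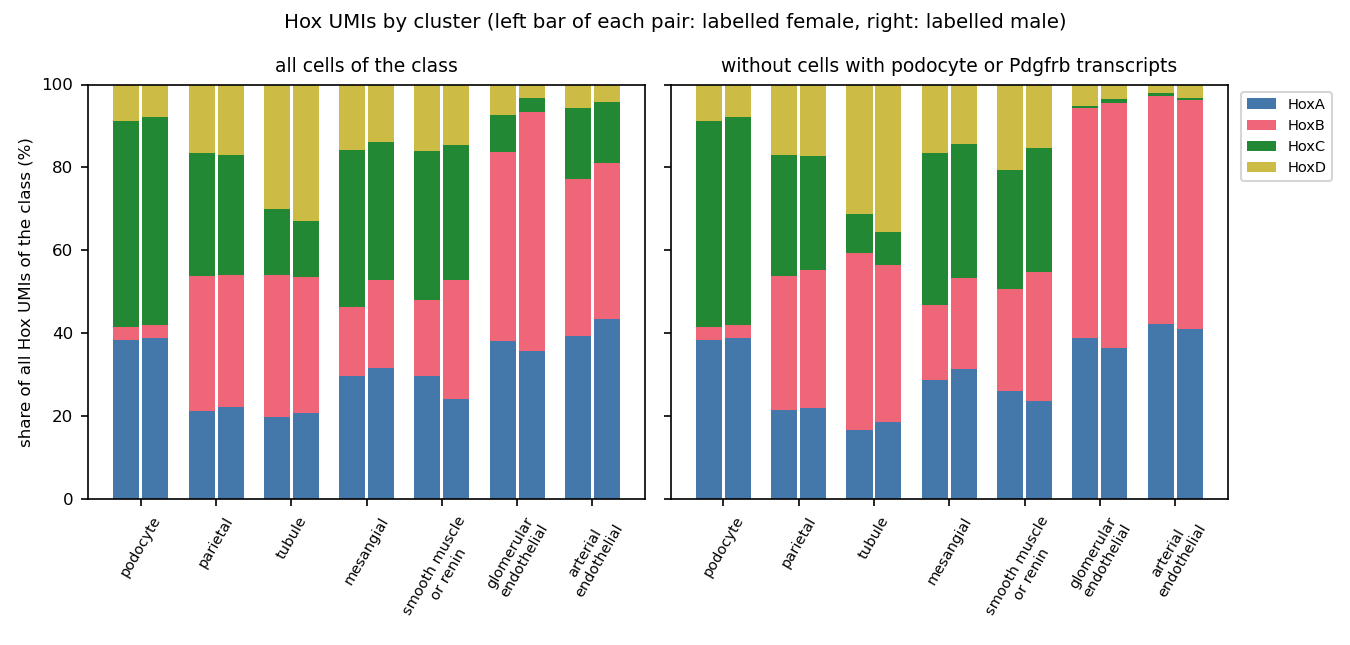
Share of all Hox UMIs (y axis, %) from HoxA, HoxB, HoxC and HoxD in each class, for all cells (left) and without cells holding podocyte transcripts or, in endothelium, Pdgfrb (right). The left bar of each pair is the library labelled female. HoxB is near 3% in podocytes, and in arterial endothelium HoxC goes from 17.2% and 14.8% to 0.536% and 0.587%.

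Arterial and glomerular endothelium differed in 6 of 26 members in all cells, where 14.2% of all genes were called, with 5 higher and 1 lower in arterial cells (7.33% and 6.91% of all genes). Hoxb9 was higher in arterial cells by 1.12 (SE 0.28, adjusted p = 0.0079) and by 1.37 (adjusted p = 0.0019) in the filtered cells. Hoxa7 was higher by 0.57 (SE 0.16, adjusted p = 0.016), and by 0.51 (adjusted p = 0.041) in the filtered cells, but its adjusted p was 0.075 when the top 5% of cells by Scrublet score were left out. The calls of Hoxc6 (1.96) and Hoxc8 (2.08) did not pass in the filtered cells, where Hoxc6 was at -6.06 (adjusted p = 0.46) and Hoxc8 at 2.09 (adjusted p = 0.50) from few UMIs, nor did the lower level of Hoxb5 (-1.03, then -0.57 with adjusted p = 0.35). When only cells with podocyte transcripts were left out, Hoxc6 was called in the opposite direction (-8.23, adjusted p = 0.049), with 0 UMIs in the arterial cells of both libraries. Hoxa10 (1.53, adjusted p = 0.029) rested on 6 and 7 arterial UMIs in the filtered cells against 0 and 2, and was at 0.30 (adjusted p = 0.88) when only cells with podocyte transcripts were left out. The filtered cells therefore gave 3 calls, Hoxa7, Hoxa10 and Hoxb9.

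Across lineages, HoxC and HoxD set endothelium apart from the others. Stroma (the mean of mesangial and smooth muscle or renin cells) differed from endothelium in 18 of 26 members, where 34.3% of all genes were called, with 15 higher and 3 lower (17.4% and 16.9% of all genes). All 7 tested HoxC genes and all 4 tested HoxD genes were higher in stroma. Hoxc6 differed by 2.84 (SE 0.18, adjusted p = 1.5e-10) and Hoxc10 by 3.66 (SE 0.28, adjusted p = 2.3e-09). Hoxa7, Hoxb7 and Hoxb9 were lower in stroma, at -1.06, -1.20 and -1.73. In the filtered cells Hoxc11 was no longer tested and all 6 other HoxC genes were called, with larger folds that rest on endothelial counts at or near 0.

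Epithelium (the mean of podocytes, parietal and tubule cells) differed from endothelium in 19 of 26 members, where 53.8% of all genes were called, with 13 higher and 6 lower (28.4% and 25.5% of all genes). The 7 HoxC and 4 HoxD genes were all higher in epithelium. No HoxB gene was higher, and Hoxb2, Hoxb4, Hoxb5 and Hoxb7 were lower, at -1.19, -1.20, -1.56 and -0.96. Hoxc11 and Hoxc5 were called at adjusted p = 0.034 and 0.029 from few UMIs. Hoxc11 lost its call when only cells with podocyte transcripts were left out (adjusted p = 0.059), and Hoxc5 with DESeq2 (adjusted p = 0.075). The lower Hoxa7 (-0.34, adjusted p = 0.006) was lost when the parietal cluster was left whole (-0.06, adjusted p = 0.63). Since epithelium here averages podocytes with 2 classes rich in HoxB, this mean does not describe each class.

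Epithelium differed from stroma in 13 of 26 members, where 43.2% of all genes were called, with 4 higher and 9 lower (22.5% and 20.8% of all genes). Hoxa11 was lower in epithelium at -4.25 (SE 0.50, adjusted p = 1.7e-06), and Hoxb2 at -2.20 (SE 0.18, adjusted p = 3.9e-09). Hoxb9 was higher by 1.93 (SE 0.24), Hoxd8 by 1.19 (SE 0.15) and Hoxa7 by 0.71 (SE 0.12). Here too the epithelial mean does not describe each class. In both libraries Hoxb9 was lower in podocytes than in either stromal class. The levels of Hoxa7 in parietal cells and of Hoxb2 in tubule cells overlapped those in mesangial cells. The 3 lineage comparisons share classes and are not independent of each other.

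Classes also differed in which paralog numbers gave most UMIs. Paralog 8 gave most in podocytes (25.2% and 24.6% of Hox UMIs) and in tubule cells (27.5% and 29.2%), and paralog 9 gave most in the 3 other classes outside endothelium, with 31.7% and 28.5% in parietal, 27.8% and 26.2% in mesangial and 20.4% and 19.96% in smooth muscle or renin cells. In glomerular and arterial endothelium paralog 7 gave most, 28.9% and 34.0% and 30.1% and 31.1%. The summed level of paralog 11 was 75.0 and 87.7 CPM in parietal cells, 62.2 and 57.1 CPM in smooth muscle or renin cells and 36.1 and 34.4 CPM in mesangial cells. It was 10.7 and 11.4 CPM in tubule cells and 2.35 and 2.31 CPM in podocytes. These sums were not tested.

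**Figure D4:**
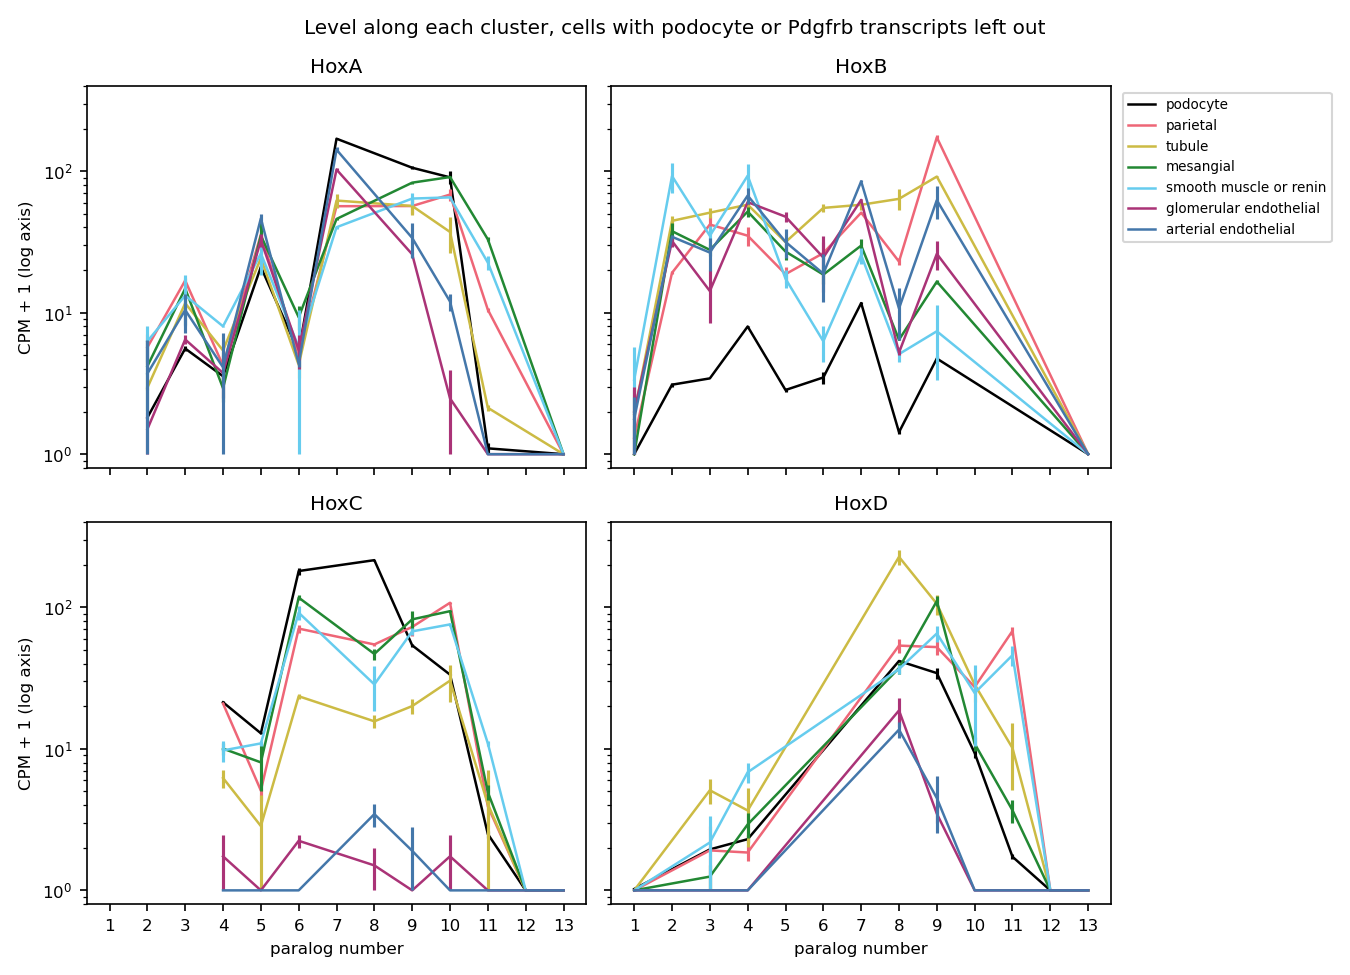
Level along each cluster (x axis, paralog number, y axis, CPM + 1 on a log axis) in the filtered cells of 7 classes. Lines join the means of the 2 libraries, vertical bars span both libraries, and the 2 Hoxd4 entries are summed. Podocytes lie lowest along HoxB from paralog 2 to 9, both endothelial classes lie lowest along HoxC, and parietal and smooth muscle or renin cells lie highest at Hoxd11.

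The share of cells with a UMI followed the levels. With each cell thinned to 3000 UMIs, 8.36% and 8.59% of podocytes held a HoxB UMI (26.0% and 24.1% before thinning), against 65.5% and 56.1% of parietal cells. A HoxC UMI was found in 77.1% and 78.1% of podocytes and in 4.42% and 3.33% of glomerular endothelial cells. All cells were deeper than 3000 UMIs, so none was left out. A cluster of 80 cells led by leukocyte genes (Lyz2, Ccl5, Ptprc), which was left unnamed, held Hoxc8 at 59.0 and 22.1 CPM and Hoxb7 at 0 and 0 CPM. With podocyte transcripts present in several classes, their part in the low levels of single genes there was not tested.

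A pair of unnamed clusters, each of 126 cells and led by Cst12, carried podocyte markers. Of the parietal markers, only Dkk3 was among the 10 leading genes of each. Those of the second also held Tagln, a smooth muscle or renin marker, and Gatm, a proximal tubule marker. The first held Hoxb9 at 27.2 and 45.7 CPM and Hoxd11 at 32.8 and 32.0 CPM, between the podocyte and parietal levels. The second held Hoxb9 at 13.5 and 8.6 CPM and Hoxd11 at 3.4 and 3.7 CPM. Hoxc8 was at 137 and 126 CPM in the first and at 177 and 232 CPM in the second.

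Among the noncoding transcripts of the clusters, Hoxb5os was also low in podocytes. Of 13 listed, 8 were in the files and 5 were tested. Hoxb5os, which runs antisense to Hoxb5 and Hoxb6, stood at 103 and 116 CPM in tubule cells, at 18.8 and 26.2 CPM in parietal cells and at 0.578 and 0.837 CPM in podocytes. It was higher than in podocytes by 7.41 in tubule cells (SE 0.21, adjusted p = 1.9e-16) and by 4.84 in parietal cells (SE 0.31, adjusted p = 9.5e-11). In endothelium it was at 5.78 and 2.8 CPM in glomerular and at 0 and 0 CPM in arterial cells, where Hoxb5 itself was at 16.7 and 26.4 CPM. No source used here names the counting strand, so reads of Hoxb5, Hoxb6 and Hoxb5os may not be told apart. Hotairm1, a transcript of HoxA, was at 46.9 and 69.0 CPM in podocytes and lower in parietal cells by -1.59 (SE 0.18) and in tubule cells by -1.30 (SE 0.17). Hottip, at the posterior end of HoxA, had 0 UMIs in every class.

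Of the TALE homeodomain genes, among them the Pbx and Meis cofactors that bind DNA together with Hox proteins, 10 of 11 were tested. The list also holds Tgif1 and Tgif2 of the same family, which are not named as Hox cofactors here. In parietal cells against podocytes 7 were higher and 3 lower (5 and 3 in the filtered cells), where 30.6% and 20.4% of all genes were. Meis1 rose by 2.82 (SE 0.29) and Tgif1 by 2.48 (SE 0.25), and Pbx2 differed by -2.32 (SE 0.17). Tubule cells had 2 higher and 4 lower, against 33.0% and 20.6% of all genes. Meis2 stood at 1199 and 1252 CPM in glomerular and at 1075 and 1187 CPM in arterial endothelium, against 36.5 and 40.2 CPM in podocytes. In epithelium against endothelium Meis2 differed by -4.38 (SE 0.26), with 4 of 10 TALE genes higher and 4 lower, against 28.4% and 25.5% of all genes.

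Polycomb proteins are known to silence Hox clusters and Trithorax proteins to keep them active. Of 16 Polycomb genes tested, 4 were higher and 4 lower in parietal cells against podocytes, with a median log2 fold change of 0.02, shares near the 30.6% and 20.4% of all genes. Ezh2, a methyltransferase gene of the complex, rose by 1.97 (SE 0.35) in parietal cells and by 2.65 (SE 0.30) in tubule cells. Its relative Ezh1 stood higher than Ezh2 in every class and library, at 60.6 and 59.8 CPM against 3.99 and 3.75 CPM in podocytes. In parietal cells Ezh1 was at 56.8 and 67.5 CPM and Ezh2 at 17.7 and 15.1 CPM. Jarid2 differed by -1.21 (SE 0.13) in parietal cells. Of 8 Trithorax and demethylase genes, 1 was higher (Kdm6b, 0.70, SE 0.13) and 1 lower (Kdm6a, -0.39, SE 0.15) in parietal cells. Of the 10 tested genes that flank the clusters, 2 were higher and 3 lower there, also to be read against 30.6% and 20.4%. Evx1 and Evx2, at the posterior ends of HoxA and HoxD, had 0 UMIs in every class.

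Of 15 transcription factors of kidney development 12 were tested. Of these, 5 were higher and 4 lower in parietal cells against podocytes (5 and 5 in the filtered cells), where 30.6% and 20.4% of all genes were. Pax2 rose by 8.10 (SE 0.26), from 0.339 and 0.304 CPM to 108 and 92.7 CPM, Osr1 by 6.14 (SE 0.58) and Lhx1 by 4.47 (SE 0.47), and Tcf21 differed by -5.04 (SE 0.23). Pax2 is also the gene whose promoter drives the transgene of these mice. Pax2 and Pax8 were among the parietal markers, Wt1 among the podocyte markers and Gata3 among the mesangial markers that named the classes. These genes were not left out of the clustering, so their folds and their part in the counts are not independent of the class names. In tubule cells 5 were higher and 6 lower (33.0% and 20.6% of all genes), led by Lhx1 (7.33, SE 0.29) and Pax2 (7.11, SE 0.28). In arterial against glomerular endothelium 4 were higher (7.33% of all genes), among them Wt1 (3.25) and Tcf21 (2.96), and in the filtered cells 0 of them were called, with Wt1 at -1.76 (adjusted p = 0.31) and Tcf21 at -0.06 (adjusted p = 1.0).

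Some gene models overlap, which limits single members. Hoxc5 spans Hoxc6, Hoxc8 and Hoxc9 and overlaps part of Hoxc10 on the same strand, Hoxa3 spans Hoxa4 to Hoxa6, and Hoxd3 overlaps Hoxd4, so reads in shared stretches may have been split or dropped. Antisense genes overlap 7 members of HoxA, 4 of HoxB and 3 of HoxD and none of HoxC. Each mouse was 1 library. With the library as a block, the p-values rest on how far class differences varied between these 2 mice. That spread was estimated over all classes together, and a difference between the mice that is equal in all classes is not part of it.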

How the data were processed

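Glomerular cells of 2 mice were profiled by 10x 3' single-cell RNA sequencing, 1 library each. Per the file headers, the authors deposited a count matrix per library, in whole UMIs by gene and barcode, without scaling. Cell Ranger 6.1.2, STAR 2.7.5a and build mm10 are named in the submitters' processing notes, with no role given. No source used here gives the cell calling, annotation or counting strand. Groups follow the sample titles, which the sex-linked transcripts go against. The members, gene lists and tests were chosen with earlier results of these data known.

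Barcodes over 20% mitochondrial UMIs or under 500 genes were left out. Scrublet called 2 and 1 cells, under 0.5%, and so has not worked; mixed cells remain. Cells were clustered (scanpy 1.11.5, leidenalg 0.10.2, 30 components of 2000 variable genes without Hox genes, 20 neighbours, resolution 1.0) into 17 clusters, and the parietal cluster was clustered again at 0.5 after its markers were seen, which gave 19. A name needed 3 or more markers in over 20% of cells, at 50 CPM and more than 2 times the lower quartile over the clusters. Counts were summed per library and class and tested with edgeR 4.0.16 (quasi-likelihood, TMM, filterByExpr, library as block, Benjamini-Hochberg). The library pairs the classes because classes of 1 mouse share a suspension. The fit was also run on simulated counts. These were drawn from a profile shared by all classes, with a fixed spread, no library effect and changes in parietal cells only. The simulation therefore does not cover the many class differences or the mixed cells of the data. DESeq2 1.42.0 was an alternative. Members at 20 CPM or more in both libraries in at least 1 class were named with values, others by range and count; of each other list, at most the 4 called genes with the largest fold change were named, and genes named for their level or a count of 0 were chosen after their values were seen. Class depths ran from 417775 to 50140611 UMIs, and intervals are exact Poisson or binomial at 95%. Coordinates come from GENCODE M21. Some genes are not reported here.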

Additional observations from a re-analysis of the deposited data

How the results depend on the processing

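Of 102 called pairs of a Hox gene and a contrast, 85 kept direction and call in every fit that tested them, over 15 alternative settings. The calls of all 8 HoxB genes in parietal and tubule cells against podocytes were among these 85. Without the replicate block the number of calls was 19 rather than 21 in parietal cells against podocytes, and was equal to that with the block in the other contrasts. In arterial against glomerular endothelium the 6 calls became 2 when the top 5% of cells by Scrublet score were left out, 3 without cells with podocyte transcripts, 3 without endothelial cells with Pdgfrb as well, and 1 with podocyte-derived counts subtracted. The sign turned for Hoxc6 (-8.23, -6.06 and -8.01 in the last 3 settings) and for Hoxc8 (-1.50 without podocyte-transcript cells, -8.67 with counts subtracted); these rest on counts at or near 0. Smooth muscle or renin against mesangial cells had 5 calls without the highest Scrublet scores, against 3. In glomerular endothelium the 9 genes detected became 14 at Leiden resolution 0.5, where no arterial class formed, and 10 to 15 with 1 library left out; its summed level of 495 CPM became 581 at that resolution. The 15 genes detected in arterial endothelium became 9 at 20 CPM, and its summed level of 667 CPM became 617 without the highest Scrublet scores, 598 without cells with podocyte transcripts and 598 in the filtered cells. The summed level moved by more than the spread of the libraries in parietal cells (1168 CPM, then 1173 at a mitochondrial limit of 10%, 1141 without the highest Scrublet scores, 1177 with Hox genes in the clustering, 1115 with the cluster left whole, 1108 without parietal cells with Pdgfrb, and 1161 without cells with podocyte transcripts and in the filtered cells) and mesangial cells (1035 CPM, then 1022 by marker score alone and 1046 without the highest Scrublet scores). The cause of these shifts was not tested. At the 10% mitochondrial limit the tubule class had under 20 cells in a library and its contrasts could not be fitted. The settings based on podocyte or Pdgfrb transcripts and the unsplit parietal cluster were chosen after seeing the data. Small classes limit the low genes: 3 counts correspond to 7.18 CPM in smooth muscle or renin cells and to 0.0598 CPM in podocytes.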
